A study of Mus musculus with 12 samples.

Results

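Intu, Fuz and Rsg1 are the 3 genes described here, of 31078 in the part of the count table used. They were chosen as the genes of the CPLANE complex that the table holds, by matching Ensembl IDs to symbols; Rsg1 is also called Cplane2. The other genes of the complex, Wdpcp and Cplane1, were not analysed here. RNA was sequenced from lungs of E12.5 embryos (day 12.5 of mouse gestation), all C57BL/6 in background. There were 4 groups of 3 libraries: wild-type left lung, wild-type right lung, Intu-knockout left lung and Intu-knockout right lung. The embryos came from crosses of parents that carried an Intu knockout allele, so wild-type and knockout embryos share that breeding, and the labels leave unsaid whether each library is a different embryo. P-values therefore measure the spread between these libraries, which may be technical. Which exons of Intu the allele lacks is not given in the labels.

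The CPLANE proteins (ciliogenesis and planar polarity effectors) work at the base of the primary cilium, the single antenna on most cells of an embryo. They help to bring intraflagellar transport particles, the carriers that build the cilium, to the basal body. Intu and Fuz proteins pair through related folds and act on small GTPases of the Rab family, and Rsg1 is a Rab-like GTPase that binds the complex. Vertebrate Hedgehog signalling passes through the cilium, so the loss of CPLANE genes is known to disturb both cilia and Hedgehog responses, and in the embryonic lung Hedgehog ligand from the epithelium acts on the mesenchyme.

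Intu lies on the plus strand of chromosome 3 (40531286 to 40704774, GRCm38; ENSMUSG00000060798). Its counted exons form 17 blocks with 7428 bases in all, of which the last block alone holds 48.1% (3573 bases) and the third 12.3% (911 bases). Fuz lies on chromosome 7 (44896079 to 44902631, plus strand; ENSMUSG00000011658) in 7 blocks of 5003 bases. Of these bases, 38.5% also lie in exons of 2 genes on the opposite strand, D7Bwg0826e and Ap2a1. Rsg1 lies on chromosome 4 (141213956 to 141226756, plus strand; ENSMUSG00000073733) in 8 blocks of 1879 bases, of which 45.2% belong to a last block found in a non-coding transcript only.

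The 250 bases before the RefSeq start of each gene (GRCm38.p6, plus strand, 5′ to 3′) are shown because the 3 genes were transcribed in every library and the windows can be compared for the X-box, the motif of RFX factors, which regulate many cilium genes. Capitals mark matches to its core of 6 letters, GTTGCC or the reverse complement GGCAAC, and to the whole X-box, which overlaps that core. For Intu the RefSeq start is the first base of the second exon block, 9481 bases after the start of the gene in the annotation used for the exons. The windows are chr3:40540517-40540766 for Intu, chr7:44895829-44896078 for Fuz and chr4:141213706-141213955 for Rsg1.
Intu: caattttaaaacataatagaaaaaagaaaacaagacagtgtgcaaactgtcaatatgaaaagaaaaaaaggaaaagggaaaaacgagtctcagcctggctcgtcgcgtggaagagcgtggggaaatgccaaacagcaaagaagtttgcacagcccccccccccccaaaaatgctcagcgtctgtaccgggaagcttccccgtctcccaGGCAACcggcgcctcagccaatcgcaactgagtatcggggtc
Fuz: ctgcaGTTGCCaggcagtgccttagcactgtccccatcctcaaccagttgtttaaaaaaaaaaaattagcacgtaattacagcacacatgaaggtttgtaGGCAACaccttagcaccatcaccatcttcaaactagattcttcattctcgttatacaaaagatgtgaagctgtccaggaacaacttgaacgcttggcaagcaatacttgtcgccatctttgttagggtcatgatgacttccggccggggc
Rsg1: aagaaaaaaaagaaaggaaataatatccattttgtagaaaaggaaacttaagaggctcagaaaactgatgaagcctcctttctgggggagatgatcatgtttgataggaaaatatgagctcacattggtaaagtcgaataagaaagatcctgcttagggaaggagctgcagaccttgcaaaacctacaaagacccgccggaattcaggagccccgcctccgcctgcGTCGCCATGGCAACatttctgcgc
Intu held 1 core, 42 to 37 bases before the start. Fuz held 2, the nearer one 150 to 145 bases before the start. Rsg1 held 1, and it was part of an X-box 24 to 11 bases before the start. Of 32851 windows of this length, 10.4% held a core and 0.804% an X-box. Both motifs were chosen after the sequences were seen, both strands were searched, and a match is a description of the letters and not a bound site.

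Library totals in the table ran from 10290103 to 10753386 counts, and 9519 genes, all 3 members among them, passed the filter on low counts. This total covers chromosomes 1 to 7, 10, X and part of 8, so the levels below, in CPM (counts divided by library size, here scaled by TMM), are relative to that part of each library. Of the fixed markers in the table, those of lung mesenchyme (5 genes, with Tbx5 at 362.4 to 490.3 CPM) and lung epithelium (4 genes, with Shh at 96.8 to 129.6 CPM) were counted in every library. Summed marker levels moved with the label for macrophages (5 of 6 markers in the table), at 83.2 to 102.8 CPM in wild-type and 55.4 to 79.3 in knockout-labelled libraries, and for autonomic neurons (5 of 6), at 20 to 40.7 and 12.3 to 18.1. Those of lung mesenchyme (5 of 8) were also apart, at 3451 to 3672 and 3679 to 4614, though the nearest values almost met. Most of this sum was 1 gene, Col1a2, at 2393 to 3441 CPM over the 12 libraries. The sum therefore does not stand for the mesenchyme markers as a set. Single markers of macrophages and autonomic neurons were not read by label, so whether 1 gene carried either sum was not tested. The share of genes tested that were apart in this way is not given here. None of these markers was at 0 in any library, and their part in the differences below was not tested. The other summed ranges overlapped: 505.8 to 535.8 CPM in wild-type and 521 to 707.5 in knockout-labelled libraries for epithelium, 369.8 to 413.4 and 340.5 to 447.8 for endothelium, and 2178 to 3453 and 2465 to 3850 for erythroid cells. Of the multiciliated cell markers 2 of 9 were in the table, and their summed level was 9.57 to 12.5 and 6.9 to 11.2 CPM.

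The first question was whether the transcript of Intu, the targeted gene, differed between the labels. Intu was counted in all 12 libraries, with 272 to 364 reads each. Its level in the left lungs of wild types was 30.6, 32.5 and 30.5 CPM in libraries 1, 2 and 3, and in knockout-labelled left lungs 27.5, 27.1 and 26.2 CPM. All knockout-labelled left libraries lay below all wild-type left libraries, which was so for 8.26% of genes tested. In wild-type right lungs Intu stood at 33.2, 34.0 and 28.2 CPM, and in knockout-labelled right lungs at 28.2, 28.9 and 31.4 CPM. On this side the labels overlapped, with wild-type library 3 at the low end of the knockout-labelled values.

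**Figure D1:**
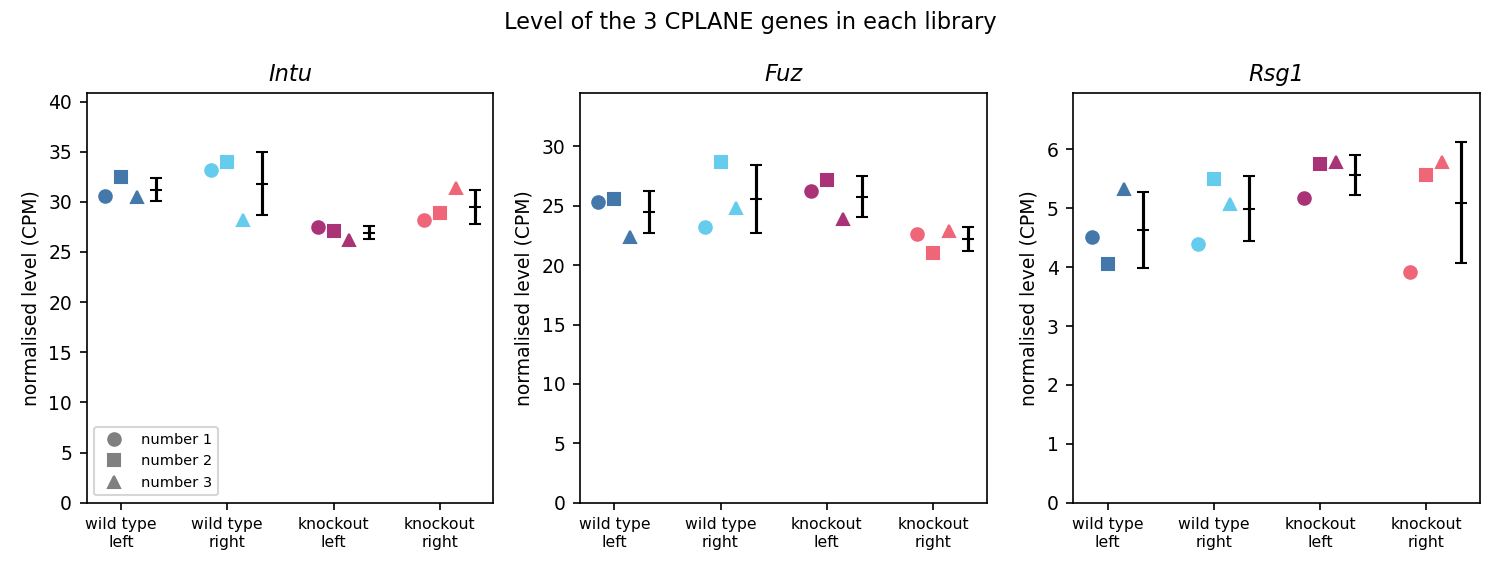
Normalised level in CPM (vertical axes, from 0) of Intu, Fuz and Rsg1 in each of 12 libraries, by group; symbols give the replicate number and bars the mean ± SD of 3 libraries. Intu lies between 26.2 and 34.0 CPM, Fuz between 21.0 and 28.7 and Rsg1 between 3.91 and 5.79, so transcripts of the targeted gene are seen in both labels.

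Over both sides, Intu was at 31.5 ± 2.12 CPM in wild-type and 28.2 ± 1.83 CPM in knockout-labelled libraries (SD, n = 6 each). The log2 difference was -0.16 (SE 0.06; 95% interval -0.29 to -0.03), which is a level 10.4% lower. It did not pass edgeR's quasi-likelihood test after adjustment over all genes (adjusted p = 0.162; unadjusted p = 0.0222 from the same edgeR fit). At that unadjusted threshold of 0.05, 19.7% of genes tested would be called, against 5.7% at an adjusted p of 0.05. The difference was -0.21 in left lungs (SE 0.09, adjusted p = 0.38) and -0.11 in right lungs (SE 0.09, adjusted p = 0.673). In bulk tissue, fewer cells that transcribe a gene and less RNA per cell cannot be told apart.

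Same-numbered left and right libraries of one genotype deviated together, so Intu was also read with the 2 sides of each number summed. The summed levels were 31.8, 33.3 and 29.3 CPM in wild-type and 27.8, 28.0 and 28.8 CPM in knockout-labelled lungs. These did not overlap, as was so for 10.4% of genes tested in this way with lower knockout-labelled pairs, and an exact two-sided permutation test of 3 against 3 gave p = 0.10, the smallest value this design allows. The edgeR fit of the summed counts gave the same difference with an adjusted p of 0.398. Because a read anywhere in the 17 blocks adds to the count, and the last block holds 48.1% of the counted length, the gene-level count tells the presence of Intu RNA and not whether that RNA is intact.

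Fuz encodes the planar cell polarity effector that pairs with Intu in the complex. Its level was 25.3, 25.6 and 22.4 CPM in wild-type left lungs and 26.2, 27.2 and 23.9 CPM in knockout-labelled left lungs. In right lungs it was 23.2, 28.7 and 24.8 CPM in wild-type and 22.6, 21.0 and 22.9 CPM in knockout-labelled libraries. The labels overlapped on the left and not on the right, where the knockout-labelled libraries were all lower, as they were for 9.71% of genes tested. Over both sides the log2 difference was -0.06 (SE 0.07; 95% interval -0.22 to 0.09; adjusted p = 0.677 in edgeR's test). It was 0.08 on the left (adjusted p = 0.88) and -0.21 on the right (SE 0.10, adjusted p = 0.408).

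How reads were assigned where exons of Fuz overlap those of its opposite-strand neighbours is not known. Whether counting used strand is not given in the sources used here, and whether Fuz gained or lost reads there was not tested. Of the Fuz exon bases, 24.1% lie in exons of D7Bwg0826e and 14.4% in those of Ap2a1, which encodes a subunit of the clathrin adaptor AP-2. Ap2a1 was far more abundant, at 264.4 to 306.2 CPM, and D7Bwg0826e stood at 0.782 to 2.15 CPM. Neither passed the test over both sides (0.01, adjusted p = 0.958, and 0.21, adjusted p = 0.697). Fuz values therefore carry an uncertainty of read assignment. The exons of Intu and Rsg1 are shared with no other gene of the table.

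Rsg1, the small GTPase of the complex, was the least counted, with 40 to 60 reads per library. In left lungs it stood at 4.52, 4.06 and 5.33 CPM in wild-type and 5.18, 5.75 and 5.78 CPM in knockout-labelled libraries. In right lungs it was 4.40, 5.50 and 5.07 CPM in wild-type and 3.91, 5.57 and 5.79 CPM in knockout-labelled libraries. The labels overlapped on both sides. The log2 difference was 0.15 over both sides (SE 0.13; 95% interval -0.14 to 0.43; adjusted p = 0.598), 0.26 on the left (SE 0.19, adjusted p = 0.708) and 0.03 on the right (SE 0.19, adjusted p = 0.97), all in edgeR's test.

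None of the 3 genes was called by edgeR in any of the 3 comparisons of genotype, where 5.7% of genes tested were called over both sides, 1.18% on the left and 1.51% on the right. At an unadjusted p under 0.05, Intu alone passed, over both sides and on the left (unadjusted p = 0.0305 in edgeR's test), where 10.9% of genes tested would; on the right, with none of the 3, it was 13.5%. Over both sides, the intervals of this fit ran from -18.3% to -1.81% for Intu and from -14.1% to 6.42% for Fuz. For Rsg1 the interval was -9.12% to 34.7%. That fit did not take up the left and right pairing, so the intervals may be too narrow. With left and right summed, the SE of Intu was 0.07 in place of 0.06. The intervals are not evidence that the genes were equal between labels.

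**Figure D2:**
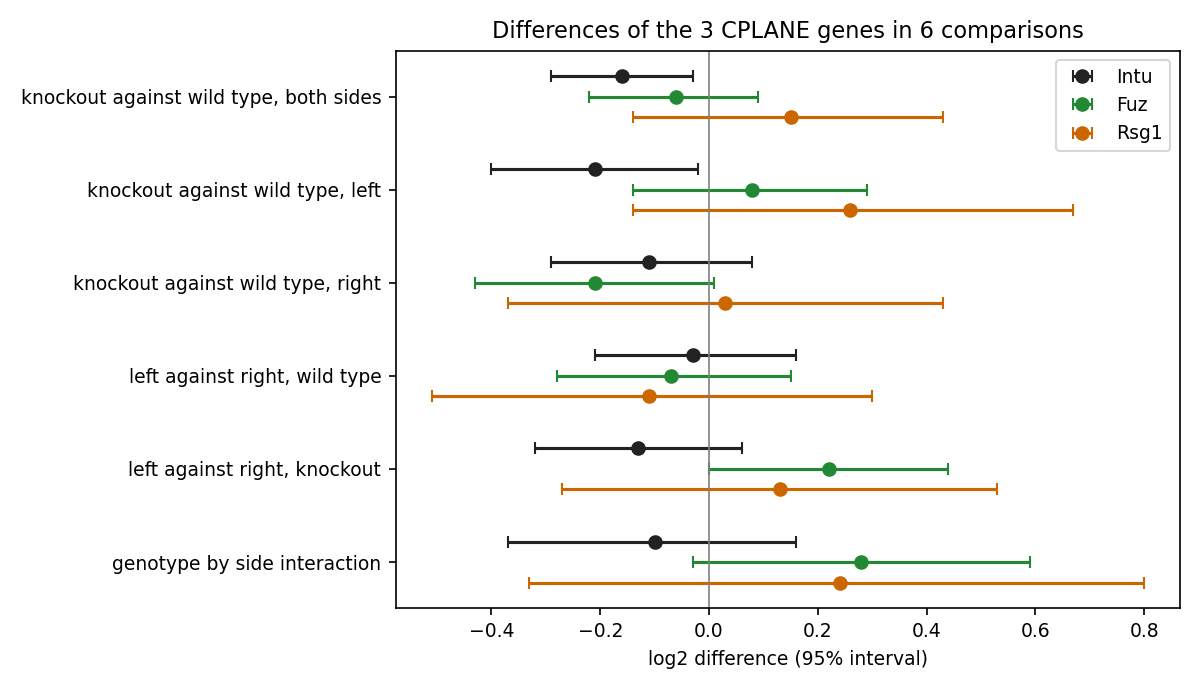
Log2 difference (horizontal axis) with its 95% interval for Intu, Fuz and Rsg1 in 6 comparisons of edgeR's fit. The intervals of Intu over both sides (-0.29 to -0.03) and on the left (-0.40 to -0.02) leave out 0. None of the 18 differences was called after adjustment, and the fit did not take up the left and right pairing.

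The second comparison was between left and right lungs. In wild-type lungs Intu differed by -0.03 (SE 0.09), Fuz by -0.07 (SE 0.10) and Rsg1 by -0.11 (SE 0.19) on the log2 scale, left against right. The adjusted p was 1 for each in edgeR's test, which called 0.0105% of genes tested (2.62% at an unadjusted p under 0.05). In knockout-labelled lungs Intu stood at -0.13 (SE 0.09), Rsg1 at 0.13 (SE 0.19) and Fuz at 0.22 (SE 0.10). For Intu all 3 left libraries lay below all 3 right ones. Left was therefore below right in each pair, by log2 values of -0.04, -0.09 and -0.26. That separation was seen in 4.21% of genes tested, and the test did not call Intu (unadjusted p = 0.155 and adjusted p = 1 in edgeR). For Fuz all 3 left libraries lay above all 3 right ones. It follows that left was above right in each pair, by 0.22, 0.37 and 0.06 on the log2 scale. Such a separation with higher left libraries was seen in 3.97% of genes tested, and the test did not call Fuz (unadjusted p = 0.0526 and adjusted p = 1 in edgeR). The edgeR test called 0% of genes here (3.76%, 358 genes, at an unadjusted p under 0.05), and DESeq2 called 4 genes. With same-numbered libraries as a block the adjusted p of Fuz in edgeR was 0.453.

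Whether the genotype difference itself differed between sides was tested with an interaction. It was -0.10 for Intu (SE 0.12), 0.28 for Fuz (SE 0.14; 95% interval -0.03 to 0.59) and 0.24 for Rsg1 (SE 0.26) on the log2 scale. No gene of the table was called by edgeR (0% of 9519; 124, or 1.3%, at an unadjusted p under 0.05), and the unadjusted p-values of the 3 genes were 0.412, 0.0696 and 0.386. DESeq2 called 0 as well, and edgeR with the pairs as a block called 2. The different signs of Fuz on the left and right are thus not shown to differ.

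Over all 12 libraries the coefficient of variation of CPM was 8.5% for Intu, 9.1% for Fuz and 13.5% for Rsg1, beside 5.66%, 6.25% and 13.7% expected from Poisson counting of their mean counts. Rsg1 thus varied no more than its counting error, and at this depth a difference smaller than its interval was not detectable. Pearson's r of log2 CPM over the 12 libraries was 0.13 for Intu with Fuz, -0.29 for Intu with Rsg1 and 0.09 for Fuz with Rsg1, given as a description, since the libraries share groups and pairs.

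Between genes, levels were compared per length, as RPKM, which is CPM for each kilobase of exon. With all counted exons, Fuz was highest at 4.89 ± 0.446, then Intu at 4.02 ± 0.342 and Rsg1 at 2.70 ± 0.363 RPKM (SD, n = 12). Each of the 12 libraries had this order, with Fuz over Intu by a factor of 1.04 to 1.49 and Intu over Rsg1 by 1.15 to 2.02. All 3 genes lay below the median of tested genes (8.69 RPKM): 39.1% of tested genes were lower than Fuz, 35.9% lower than Intu and 29.5% lower than Rsg1. By group, Fuz stood at 4.88 ± 0.346, 5.11 ± 0.568, 5.15 ± 0.343 and 4.43 ± 0.203 RPKM in wild-type left, wild-type right, knockout-labelled left and knockout-labelled right lungs (SD, n = 3 each). Intu stood at 4.20 ± 0.153, 4.28 ± 0.418, 3.63 ± 0.09 and 3.97 ± 0.228 RPKM in the same groups, and Rsg1 at 2.47 ± 0.342, 2.66 ± 0.298, 2.96 ± 0.178 and 2.71 ± 0.547 RPKM.

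The order below Fuz rested on which exons were counted as length. With the length of the main coding transcript of each gene (6387 bases for Intu, 1698 for Fuz and 985 for Rsg1), Fuz stood at 14.4 ± 1.31 RPKM, and Rsg1 and Intu stood at 5.15 ± 0.693 and 4.67 ± 0.397 (SD, n = 12). Intu was then the higher of those 2 in 4 of 12 libraries, so they did not differ beyond their spread. With only the Fuz exon bases that no other gene shares (3076 bases), Fuz stood at 7.96 ± 0.725 RPKM. Each length divides the same counts, and both other lengths shorten Fuz more than Intu or Rsg1, so Fuz could only stay highest and its place was not checked by them. Both other lengths were added after seeing the data.

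**Figure D3:**
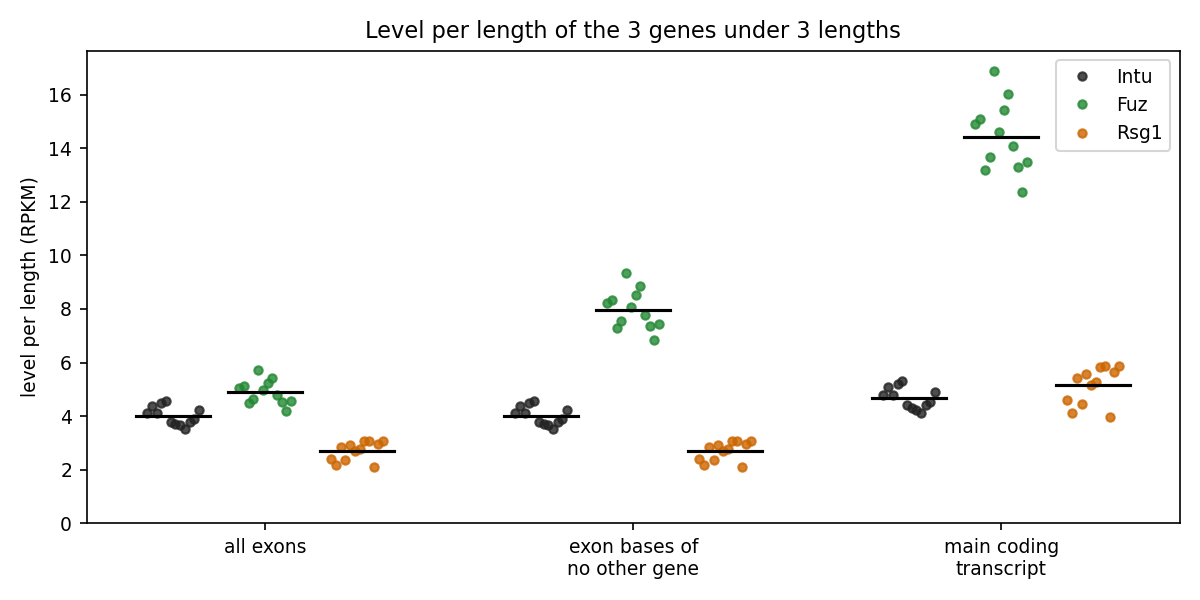
Level per length in RPKM (vertical axis, from 0) of the 3 genes in 12 libraries with 3 ways of measuring exon length; points are libraries and black lines means. The same counts are divided by each length; the means of Fuz are 4.89, 7.96 and 14.4 RPKM, and Intu and Rsg1 overlap with the length of the main coding transcript.

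Other genes of the pathway were read from lists, each given by its count of calls and its median beside the median of all tested genes, 0.0036. Over both sides 5.7% of genes tested were called, so no call in a list of 4 to 12 genes is near that share. Of 7 listed genes of intraflagellar transport complex A, which CPLANE is known to recruit, and its adaptor, 4 were tested. None of them was called over both sides, with a median log2 difference of 0.07. Tulp3, the adaptor that brings membrane receptors to the complex, had the smallest p (0.08, SE 0.04, adjusted p = 0.289 in edgeR's test). None of 12 tested genes of complex B, of 18 listed, was called either (median 0.06). Ift172 stood at 0.13 (SE 0.05, adjusted p = 0.176 in edgeR's test). The Ttc30 genes on this list are near-identical copies between which reads may be split, so the lowest value, -0.35 for Ttc30a2, is uncertain.

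Of 16 listed genes of the basal body, the platform at which CPLANE sits, 10 were tested and 0 were called (median 0.03). Cep89, of the distal appendages that dock the basal body to the membrane, had the smallest p there (0.13, SE 0.05, adjusted p = 0.147). Cep83 (0.13), Ccp110 (0.11) and Sclt1 (-0.15) also had an unadjusted p under 0.05 in edgeR's test, as 19.7% of genes tested did. Of the 10 genes, 9 lay above 0 and 1 below over both sides. On the left it was 6 and 4, and on the right 9 and 1. The share of all genes tested that lay above 0 is not given here, and their median over both sides was 0.0036. Among 12 listed ciliary small GTPases and their partners, the family to which Rsg1 is related, 4 were tested. None of them was called (median 0.00), with Rab8a at -0.06 (SE 0.04, adjusted p = 0.47 in edgeR's test). In edgeR's test the 5 tested of 14 listed core planar cell polarity genes gave no call over both sides (median -0.02). Vangl1, a membrane protein of that pathway, stood at -0.18 (SE 0.05, adjusted p = 0.0514), next to the threshold. DESeq2 called it (adjusted p = 0.0447), as did edgeR with a block for the replicate number shared across genotypes (adjusted p = 0.04). Such a block leaves the left and right pairing out. Fits that took up the pairing did not call Vangl1. The adjusted p was 0.123 in limma-voom with a random term per pair, and 0.23 in edgeR with left and right summed. When single libraries were left out, edgeR called it only without the knockout-labelled right library 1 (adjusted p = 0.0359). The other such fits gave an adjusted p from 0.0536 to 0.116.

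Calls were found among Hedgehog targets. Gli1 and Hhip, the 2 Hedgehog targets tested, both fell over both sides, by 1.1 (SE 0.05, adjusted p = 1.54e-08) and by 0.85 (SE 0.08, adjusted p = 3.81e-05) on the log2 scale in edgeR's test. That fit did not take up the left and right pairing. With left and right summed, the adjusted p in edgeR was 7.84e-05 for Gli1 and 0.00595 for Hhip. Gli1, a transcription factor, was at 344.6 to 394.4 CPM in wild-type and 150.6 to 185.5 CPM in knockout-labelled libraries. Hhip, which encodes a Hedgehog-binding protein, was at 168.9 to 219.2 and 94.6 to 127.9 CPM. For both genes the labels did not overlap, and the share of genes tested that were apart in this way is not given here. Among genes of Hedgehog transduction, Smo, Gli2, Kif7, Gpr161 and Shh stood at -0.06 to 0.18 and were not called. Gli1 and Hhip were also called on the left and on the right, and no gene of the cilium and planar polarity lists was called on either side. Of all genes tested, 1.18% were called on the left and 1.51% on the right. These Hedgehog calls were already known in these data when the lists were written and are given as a reference beside the CPLANE genes.

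**Figure D4:**
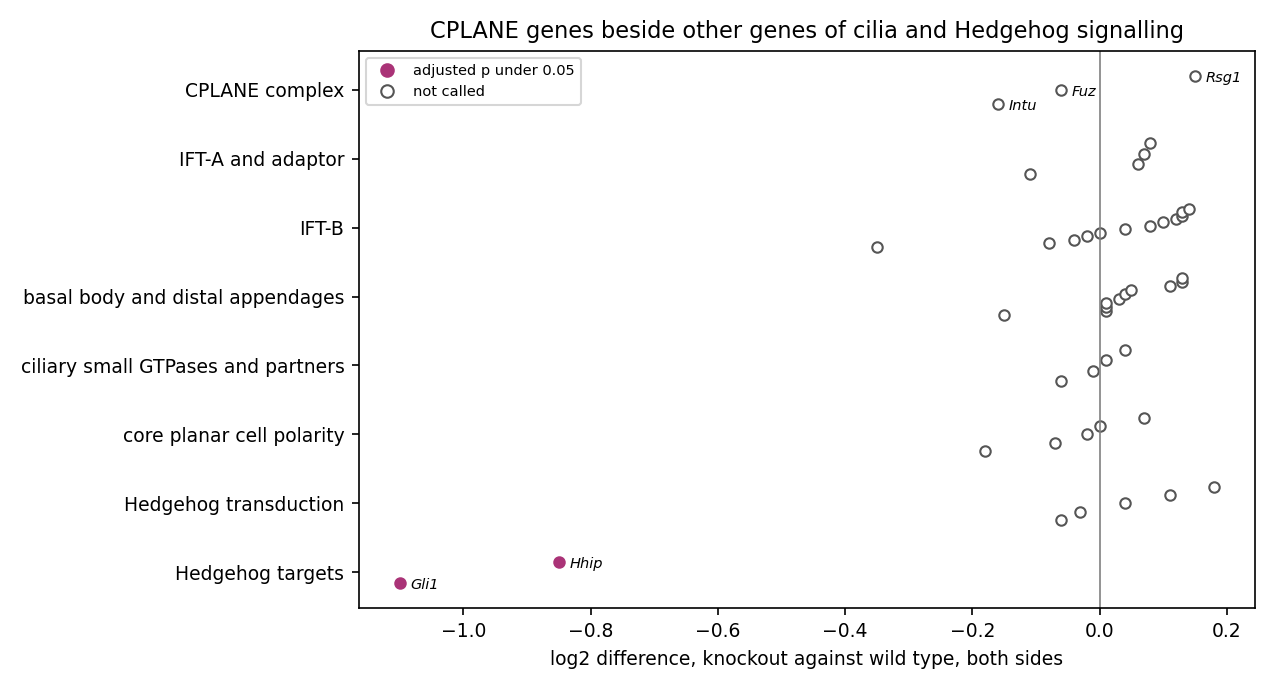
Log2 difference of knockout-labelled against wild-type lungs over both sides (horizontal axis) for genes of 8 lists; each point is 1 gene, filled where the adjusted p was under 0.05. The CPLANE genes lie between -0.16 and 0.15, and the filled points are Gli1 and Hhip.

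Neighbouring genes were read to place each member in its region. On chromosome 3 the nearest tested gene after Intu, Hspa4l, a heat shock protein gene 40608 bases away, stood at -0.02 (SE 0.08, adjusted p = 0.929). The nearest before it, Fat4, 1519301 bases away, encodes an atypical cadherin of planar polarity and was higher by 0.31 (SE 0.08, adjusted p = 0.0336 in edgeR's test), with 210.5 to 247.3 CPM in wild-type and 219.5 to 339.7 CPM in knockout-labelled libraries. With left and right summed Fat4 was not called (adjusted p = 0.0975), and 8 of 12 fits that each left out a library did not call it (adjusted p from 0.0524 to 0.0753). The 4 that did left out wild-type left library 3, knockout-labelled left library 1 or 2, or knockout-labelled right library 1. The nearest tested neighbours of Fuz (Med25 at -0.03 and Cpt1c at 0.05) and of Rsg1 (Fbxo42 at -0.01 and Arhgef19 at 0.10) were not called (adjusted p from 0.373 to 0.916). The one gene within the span of Intu, Gm16114, lies in an intron on the opposite strand and had 0 or 1 read per library.

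The genes whose log2 CPM followed each member most closely over the 12 libraries were named by the highest Pearson r. For Intu they were Eif2b1 (0.869), Gm12992 (0.866), Gm37827 (0.863), Zscan21 (0.855) and Hp1bp3 (0.849). For Fuz they were Bcl3 (0.878), Kmt5c (0.858), 3830403N18Rik (0.837), Cdc42ep5 (0.819) and Tmem9 (0.818). For Rsg1 they were Cyp2j9 (0.884), Zbtb7a (0.860), BC034090 (0.848), Gm16206 (0.823) and Zfp385b (0.820). These are the 5 highest of 9518 values for each member, over libraries that share groups and pairs. By Spearman's rho, 2, 2 and 1 of the 5 were again among the nearest 5. None was when group means were removed first.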

How the data were processed

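RNA-seq of 12 libraries (4 groups of 3) was used. The authors deposited unnormalised whole-number counts for each gene. The submitters' processing notes name FastQC, HISAT2, featureCounts and GRCm38; for versions and strand setting, the sources used here give nothing. The deposited table's length column, under other units, gives exon bases per gene, per the file headers. One incomplete last row was left out, and the rest of the genome was not analysed here. Symbols matched 30915 of 31078 IDs (99.5%).

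Genes were filtered with filterByExpr (minimum count 10, minimum total 15; 9519 kept) and scaled by TMM (factors 0.992 to 1.01). All 12 libraries with 4 groups were fitted in edgeR 4.0.16 (R 4.3.3; glmQLFit, glmQLFTest; 8 residual degrees of freedom), with Benjamini-Hochberg adjustment over all genes and a threshold of 0.05. Intervals (95%) use the test's SE and cover the spread between these libraries. Log2 CPM used a prior count of 2. The procedure was tested on simulated counts. Alternatives used DESeq2 1.42.0, limma 3.58.1, blocks, summed pairs and left-out libraries. As the replicate block, genotype comparisons used the number across genotypes. The comparisons of sides and the interaction used the left and right pairs, as did the random effect in all comparisons. The members and lists were chosen with earlier results of these data known. Named genes were the members, Gli1 and Hhip, called members of each list or else the one with the smallest p, the 5 genes most like each member, and genes that overlap or adjoin a member; Fat4 entered as a neighbour. Other genes named were chosen after their values were seen. One further named gene is not reported here.

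Deviations from group means correlated at 0.253 to 0.486 (6 pairs) when a left and a right library of the same genotype shared a number. Pairs with unequal numbers gave -0.393 to -0.00284, and a shared number across genotypes on the other side gave -0.121 to -0.0416. Because group means were removed, positive values at the same number pull those at unequal numbers to negative ones. The values at unequal numbers are thus not separate support. From the same-number values, left and right were taken as paired by number inside each genotype. The labels do not state it. Chi-square tests between replicates gave 4.7 to 14.1 per degree of freedom, so none was counted as a duplicate.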

Additional observations from a re-analysis of the deposited data

How the results depend on the processing

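Of 321 alternative values for the 18 differences of Intu, Fuz and Rsg1, 314 kept their direction and none passed the threshold (lowest adjusted p 0.0767, for Intu over both sides without the wild-type right library 3). The 7 that changed sign each left out 1 library. They were Rsg1 in right lungs (range -0.07 to 0.19), Intu and Fuz between sides in wild type (-0.11 to 0.02 and -0.13 to 0.03), and Rsg1 between sides in the knockout (-0.03 to 0.23). The replicate block changed no call of the 3 genes. In the genotype comparisons it was the number shared across genotypes, so it did not take up the left and right pairing. For Intu over both sides this block gave -0.16 with an adjusted p of 0.165 in edgeR. With the pairs of each genotype as a random effect (limma-voom), Intu stood at -0.16 with an adjusted p of 0.333.

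Counts of called genes moved more, and the cause was not tested. Over both sides 543 genes were called, 1084 with no filter, 344 with the replicate block as a random effect (limma-voom) and 141 with left and right summed, and 354 to 569 with a library left out (354 without the wild-type right library 2). On the left 112 were called, 510 with no filter, 193 with DESeq2, 49 with only the groups compared, 177 with the replicate block and 45 to 137 with a library left out (45 without the wild-type left library 1). On the right 144 were called, 595 with no filter, 221 with DESeq2 and 68 to 175 with a library left out (68 without the wild-type right library 2 or the knockout right library 3). Between sides in wild type 1 was called, 46 with no filter, 11 with DESeq2, 8 with only the groups compared, 63 with the replicate block, 13 with the random effect and 1 to 3 with a library left out. In the knockout 0 were called, 31 with no filter, 4 with DESeq2, 43 with the replicate block, 2 with the random effect and 0 to 1 with a library left out. For the interaction 0 were called, 6 with no filter and 2 with the replicate block.

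Levels per length in wild-type left, wild-type right, knockout left and knockout right lungs moved to 4.88, 4.98, 4.22 and 4.62 RPKM for Intu, 14.4, 15.1, 15.2 and 13.1 for Fuz and 4.71, 5.07, 5.65 and 5.16 for Rsg1 with the coding transcript's length, and to 7.94, 8.32, 8.38 and 7.21 for Fuz with unshared exons. The genes most like each member were not stable: 2 of 5 for Intu, 2 for Fuz and 1 for Rsg1 were shared with Spearman's rho, and 0 with group means removed. Among other named genes with values near 0, 15 leave-one-out values changed sign: Ap2a1 (-0.01, -0.01, -0.00 and -0.02), Cpt1c (-0.01; range to 0.10), Fbxo42 (0.02 and 0.02; range from -0.04), Gm16206 (-0.03 and -0.13; range to 0.55), Hspa4l (0.01, 0.02, 0.00, 0.01 and 0.00) and Med25 (0.02; range from -0.05).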
